A study of Homo sapiens with 6 samples.

Results

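The genes of the Mediator complex and of its kinase module were followed across 6 RNA-seq libraries of Ewing sarcoma cells. Members were all protein-coding rows whose symbol is MED and a number, together with CDK8, CDK19 and CCNC. This rule uses no measured value and took 33 of the 27420 listed genes, of which 20311 are protein-coding. All members were measured. A level above 1 FPKM in the DMSO library was found for 32 of them in both cell lines, and MED12L was below it in both.

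Mediator is a large coactivator that passes the activity of DNA-bound transcription factors to RNA polymerase II at the promoter. Its core is built of a head, a middle and a tail, held together by the scaffold subunit MED14, and a group of subunits sits where head and tail meet. Head and middle contact the polymerase and the general transcription factors, whereas the tail is the main docking surface for activators. A kinase module with a CDK8 or CDK19 catalytic subunit, cyclin C, MED12 and MED13 or their paralogs binds the core reversibly and competes with the polymerase for it. Mediator stimulates the phosphorylation of the polymerase tail by CDK7, the kinase of the general factor TFIIH.

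A673 and SKNMC are established cell lines derived from Ewing sarcoma. Each was kept for 6 h in the vehicle DMSO, in 50 nM THZ1 (low-dose) or in 200 nM THZ1 (high-dose). THZ1 is a covalent inhibitor of CDK7. The design asks which transcripts are lost when CDK7 is inhibited in part or to a greater extent, and the Mediator genes were read against all other genes in that comparison.

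There was 1 library per condition. Without replicates the spread between cultures is unknown and no test was run, so the values describe these libraries alone. Levels are FPKM, fragments scaled to transcript length and library size, which allows levels to be compared between genes. Differences are log2 ratios of FPKM + 1, the THZ1 library over the DMSO library of the same line, and are too small for genes with low values. A gene is called lower or higher at 2-fold on that scale, and the background is the share of all genes above 1 FPKM in the DMSO library of the line that passed the same limit. In bulk RNA, fewer cells expressing a gene and less RNA per cell cannot be told apart.

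The listed FPKM values summed to between 451872 and 462997 per library, and between 8776 and 10182 genes per library were listed at 0. The read depth is unknown from FPKM, so no counting error can be given. The cell type was checked against markers. All 6 markers of Ewing sarcoma were above 1 FPKM in both DMSO libraries, CD99 at 504 FPKM in A673 and 313 FPKM in SKNMC. Of the markers of other cells, MYOD1 and EPCAM stayed at or under 0.826 FPKM in every library. PTPRC, a leukocyte marker, was at 0.0125 to 0.0291 FPKM in A673 but at 10.2, 7.90 and 13.1 FPKM in SKNMC with DMSO, 50 nM and 200 nM. The part of this difference in the values below was not tested.

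In vehicle-treated cells the subunit mRNAs spanned a wide range of levels. In A673 the order was led by MED10 at 68.7 FPKM, CCNC at 63.3 FPKM and MED17 at 42.2 FPKM. SKNMC was led by the same genes, with CCNC at 62.1 FPKM, MED10 at 49.9 FPKM and MED17 at 42.8 FPKM. At the bottom stood MED12L, a paralog of MED12, at 0.0130 FPKM in A673 and 0.0566 FPKM in SKNMC. Next came MED7 at 4.15 FPKM and MED26 at 4.95 FPKM in A673, and MED26 at 4.07 FPKM and MED11 at 5.28 FPKM in SKNMC. The median of the 33 genes was 14.1 FPKM in A673 and 16.0 FPKM in SKNMC, beside 14.1 and 13.5 FPKM for all genes above 1 FPKM. Whether neighbours in these orders differ beyond their spread cannot be said without replicates.

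Between the lines, 4 of 32 members differed at least 2-fold with DMSO, where 23.5% of the 12399 genes above 1 FPKM in either DMSO library did. All of these were lower in A673. MED1, the subunit that nuclear receptors contact, was at 12.2 FPKM in A673 and 27.9 FPKM in SKNMC. MED24 of the tail was at 12.7 and 37.7 FPKM, MED12 at 7.02 and 16.0 FPKM, and the kinase CDK19 at 6.19 and 15.7 FPKM. The ratio of A673 to SKNMC was 0.436 for MED1, 0.337 for MED24, 0.438 for MED12 and 0.395 for CDK19. With libraries scaled to the ribosomal protein genes, the split became 1 member lower and 4 higher in A673. The members' median then moved from 0.03 to 0.43, and the share of all genes under that scaling was not computed.

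The promoters of 3 members are shown because their mRNAs were among the extremes of the response described next. MED26 was the member with the highest difference at the low dose, MED7 was among the lowest at that dose, and MED17 was the lowest at the high dose in SKNMC on the log2(FPKM + 1) scale, close to MED9. The letters are the 250 bases before the RefSeq start of the gene (RefSeq, GRCh38.p14), read 5′ to 3′ on the strand of the gene. Each matched its own chromosome in GRCh37 once on that strand, and the GRCh37 position is given. MED26 lies at chr19:16739016-16739265 on the minus strand, inside the span the files list for the gene. MED7 lies at chr5:156569877-156570126 on the minus strand, also inside the listed span, and MED17 at chr11:93517198-93517447 on the plus strand, across the listed gene start. Capitals mark CGGAAG on either strand, the core bound by ETS factors, the family to which FLI1 of the fusion protein EWS-FLI1 belongs.
MED26: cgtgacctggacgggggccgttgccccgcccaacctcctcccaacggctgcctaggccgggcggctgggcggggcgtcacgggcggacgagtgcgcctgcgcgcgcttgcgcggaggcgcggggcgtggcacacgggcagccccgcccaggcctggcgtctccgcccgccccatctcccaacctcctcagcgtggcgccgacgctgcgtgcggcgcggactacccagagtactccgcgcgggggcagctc
MED7: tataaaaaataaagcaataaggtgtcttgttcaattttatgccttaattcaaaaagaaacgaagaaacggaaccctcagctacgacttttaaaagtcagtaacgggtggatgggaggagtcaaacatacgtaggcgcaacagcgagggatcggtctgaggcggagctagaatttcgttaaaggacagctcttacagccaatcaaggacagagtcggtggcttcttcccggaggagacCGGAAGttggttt
MED17: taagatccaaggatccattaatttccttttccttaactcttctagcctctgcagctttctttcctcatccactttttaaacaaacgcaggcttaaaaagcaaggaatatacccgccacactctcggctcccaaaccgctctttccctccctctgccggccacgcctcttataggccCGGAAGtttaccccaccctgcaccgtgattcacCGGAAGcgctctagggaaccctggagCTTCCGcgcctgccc

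The window of MED26 was 78% G and C and held the GC box GGGCGG but no ETS core. That of MED7 was 44.8% G and C, with 1 ETS core, a CCAAT box and a TATAAA motif. MED17 had 52.8% G and C and 3 ETS cores, at 74, 41 and 15 bases before the start. The windows of MED9, the lowest member in A673 at 200 nM on the log2(FPKM + 1) scale, and of CDK8 were also searched and held no ETS core. Without the added 1 FPKM, MED7 was lower there, at 12.5% of DMSO against 13.9% for MED9. RefSeq windows were found for 25 of the 33 members, 30 windows in all. The ETS core was in 9 of the 30 windows (30%), beside 16.5% of all 35116 promoter windows of this length. The 9 windows belong to MED10, MED15, MED17, MED18, MED19, MED31, MED4 and MED7, and a gene can have more than 1 window. The 35116 windows were not limited to genes expressed in these lines. GGGCGG was in 17 windows (56.7%, against 42.6%), CCAAT in 11 (36.7%, against 32.01%) and TATAAA in 2 (6.67%, against 10.7%), each searched on both strands. These matches are letters in a window and no measurement of binding.

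At the low dose, the Mediator genes as a whole shifted little more than other genes, while single subunits departed far from them in both directions. In A673, 6 of 32 members were at least 2-fold lower at 50 nM THZ1, beside a background of 15.9%, and MED26 was at least 2-fold higher, beside a background of 0.343%. The members lower were MED8, MED20, MED22, MED7, MED9 and MED29. The median difference of the 32 members was -0.38, against -0.27 for all 11077 genes above 1 FPKM, and members ran from -1.97 to 1.02. In SKNMC, 6 of 32 members were at least 2-fold lower, beside a background of 15.8%, and 0 were higher, where 0.471% of all genes were. Those lower were MED8, MED17, MED22, MED7, MED9 and MED29. The members' median was -0.34 against -0.32 for all 11896 genes. In each line 17 of 32 members stayed within 1.5-fold of DMSO, 13 were at least 1.5-fold lower and 2 higher. Over all genes, 31.8% were lower and 1.78% higher at that limit in A673, and 33.5% and 2.43% in SKNMC.

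At the high dose more subunits were lower. In A673, 11 of 32 members were at least 2-fold lower at 200 nM, beside a background of 25.3%, and 0 were higher, where 0.126% of all genes were. In SKNMC the count was 16 of 32, beside a background of 27.3%, and 0 were higher, where 0.462% of all genes were. The median difference was -0.76 in A673 and -0.999 in SKNMC, against -0.40 and -0.55 for all genes. With libraries scaled to the 75th percentile of expressed genes, the count in SKNMC was 7 of 32 beside 13.96% of all genes. In A673 it was then 8 of 32 beside 17.8%.

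**Figure D1:**
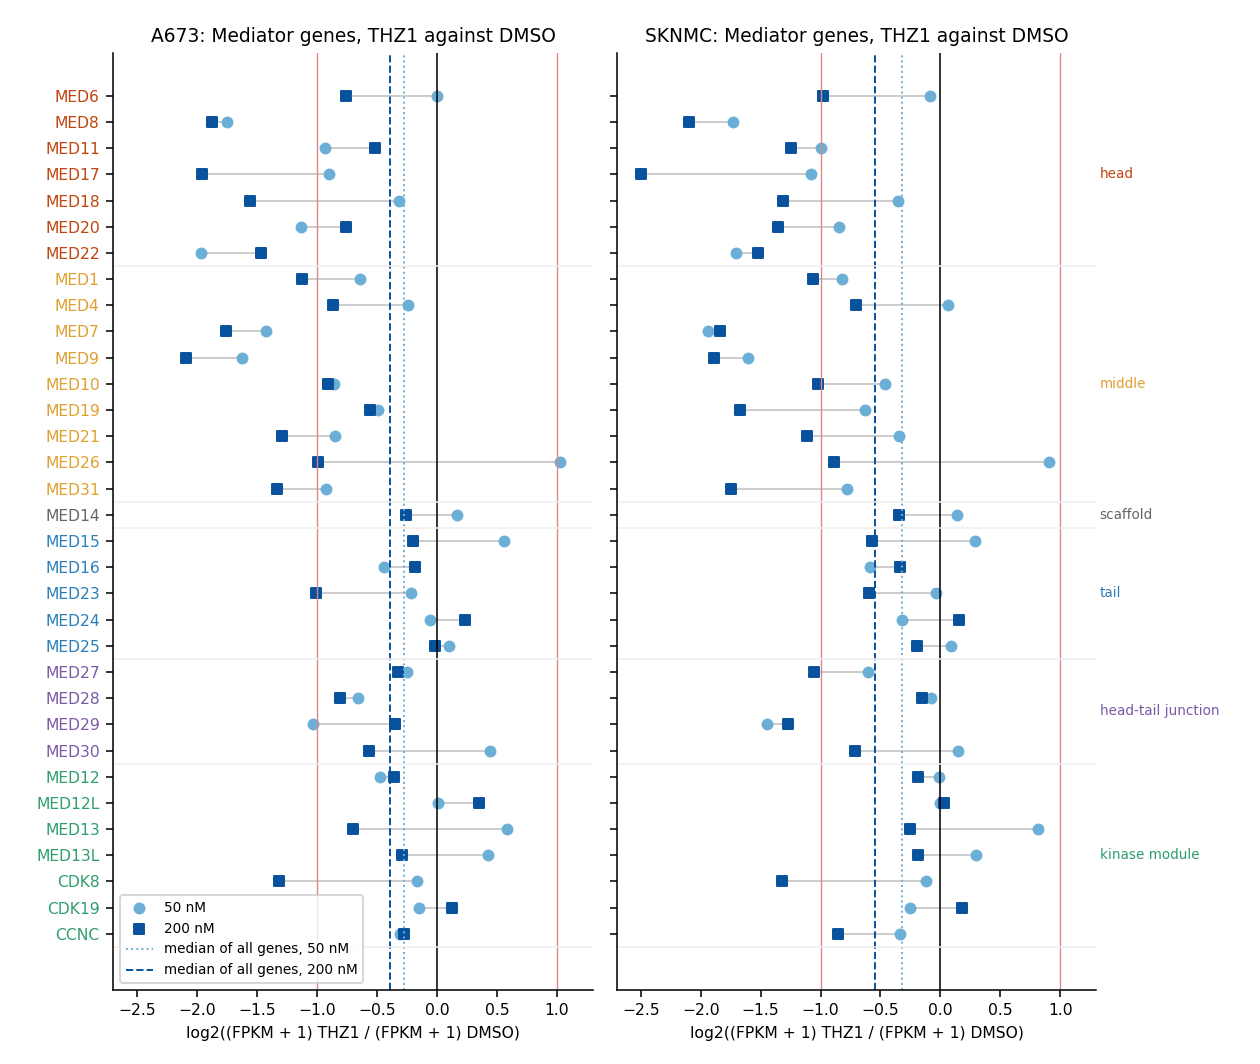
Difference of each of the 33 genes from DMSO on the log2(FPKM + 1) scale (x axis) in A673 (left) and SKNMC (right), 1 library per condition. Circles are 50 nM and squares 200 nM THZ1, symbols on the y axis are coloured by module, red lines mark 2-fold, and dotted and dashed blue lines the median of all genes at 50 and 200 nM. Most head and middle subunits sit to the left, MED26 swings from 1.02 to -0.99 in A673, and most tail and kinase module genes lie between the red lines.

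The head module, which binds the polymerase and its general factors, had the lowest median of the modules in all 4 comparisons with DMSO. The median difference of its 7 genes was -0.94 in A673 and -0.997 in SKNMC at 50 nM, and -1.47 and -1.35 at 200 nM. At least 2-fold lower were 3 of 7 in each line at 50 nM, 4 of 7 in A673 at 200 nM and 6 of 7 in SKNMC at 200 nM, beside 15.9%, 15.8%, 25.3% and 27.3% of all genes (A673 and SKNMC at 50 nM, then at 200 nM). With scaling to the 75th percentile the counts were 2, 2, 4 and 3 of 7 in the same order. The shares of all genes were then 11.3%, 10.5%, 17.8% and 13.96%. With scaling to the ribosomal protein genes the counts were 5, 5, 6 and 7, beside 20.8%, 25.5%, 34.7% and 50.5% of all genes. The head medians stayed below 0 under each of 4 scalings. These were the deposited one, a common sum, the 75th percentile of expressed genes and the median of the ribosomal protein genes.

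MED8, which ties the movable jaw of the head to its neck (chr1:43849588-43855479, minus strand, hg19), was at 15.7 FPKM with DMSO in both lines. It was at 3.96 FPKM in A673 and 4.02 FPKM in SKNMC at 50 nM, and at 3.54 and 2.90 FPKM at 200 nM. Most of the difference was thus present at the low dose in both lines, with log2 values of -1.75 and -1.73 at 50 nM and -1.88 and -2.09 at 200 nM. MED22, which forms a head dimer with MED11 (chr9:136205160-136214986, minus strand), was at 14.8, 3.03 and 4.68 FPKM in A673 with DMSO, 50 nM and 200 nM. In SKNMC it was at 17.0, 4.52 and 5.26 FPKM. MED22 was the lowest member in A673 at 50 nM, at 20.5% of its DMSO level, and 1.58% of all genes were as low or lower. Its level at 200 nM was above that at 50 nM in both lines, although the sign of that step in SKNMC turned under ribosomal protein scaling.

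MED17, the central subunit around which the head assembles (chr11:93517393-93547861, plus strand), was lower again at each dose step. It was at 42.2, 22.2 and 10.1 FPKM in A673 and at 42.8, 19.7 and 6.74 FPKM in SKNMC. At 200 nM it was at 23.97% of DMSO in A673 and 15.8% in SKNMC, where it was at -2.50 on the log2(FPKM + 1) scale. That was the lowest difference of the members in SKNMC with 1 FPKM added, but without it MED9 was lower, at 14.2% of DMSO. The 2-fold call of MED17 in SKNMC at 50 nM was lost with scaling to the 75th percentile, at -0.82. The listed span of MED17 shares 165 bases with TAF1D on the opposite strand, which was at 36.2 to 73.1 FPKM, and whether reads were counted by strand is not stated in the sources used here.

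MED18, a jaw subunit, was also lower at each dose step but nearer to DMSO at the low dose, at 7.84, 6.11 and 1.997 FPKM in A673 and 10.5, 8.01 and 3.62 FPKM in SKNMC. MED20, its partner in the jaw, was at 13.0, 5.38 and 7.28 FPKM in A673 and 16.7, 8.83 and 5.91 FPKM in SKNMC. MED11 was at 9.06, 4.25 and 6.03 FPKM in A673 and at 5.28, 2.15 and 1.65 FPKM in SKNMC. For both genes the lower of the 2 treated values came at 50 nM in A673 and at 200 nM in SKNMC. MED11 in SKNMC at 50 nM, at -0.997, lay just short of the 2-fold limit. The listed span of MED11 shares 85 bases with CXCL16 on the opposite strand, a gene at 1.40 to 2.70 FPKM. MED6, a conserved subunit facing the middle module, was the head gene nearest to DMSO at the low dose, at 31.9 FPKM with DMSO and at 50 nM and 18.4 FPKM at 200 nM in A673. In SKNMC MED6 was at 18.8, 17.6 and 9.05 FPKM.

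The middle module, which links the head to the tail and contacts the polymerase, held members at both ends of the range at 50 nM. Its median difference over 9 genes was -0.85 in A673 and -0.63 in SKNMC at 50 nM, and -1.12 and -1.11 at 200 nM, below 0 under each of the 4 scalings. At least 2-fold lower were 2 of 9 genes in each line at 50 nM, then 5 of 9 in A673 and 7 of 9 in SKNMC at 200 nM, beside the same shares of all genes as for the head. Scaling to the 75th percentile gave 2, 2, 3 and 4 of 9 (A673 and SKNMC at 50 nM, then at 200 nM). The shares of all genes were then 11.3%, 10.5%, 17.8% and 13.96%. With scaling to the ribosomal protein genes the counts were 5, 4, 8 and 9, beside 20.8%, 25.5%, 34.7% and 50.5% of all genes.

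MED7 and MED9 were the middle subunits at least 2-fold lower at both doses in both lines. MED7, a long hinge subunit (chr5:156564423-156586030, minus strand), was at 4.15, 0.909 and 0.517 FPKM in A673 and 7.08, 1.11 and 1.26 FPKM in SKNMC. MED9 (chr17:17380300-17396540, plus strand), which packs against MED4 in the knob of the middle module, was at 8.10, 1.95 and 1.13 FPKM in A673. In SKNMC MED9 was at 5.68, 1.19 and 0.807 FPKM. Both thus reached levels near 1 FPKM, where the added 1 compresses a fold. The unadjusted level of MED7 at 200 nM was 12.5% of DMSO in A673 and 17.8% in SKNMC, and the corresponding values of MED9 were 13.9% and 14.2%.

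The other middle subunits were intermediate. MED31, which joins the end of MED7, was at 14.1, 6.93 and 5.00 FPKM in A673 and 9.57, 5.17 and 2.14 FPKM in SKNMC, and its listed span shares 1227 bases with TXNDC17 on the opposite strand, a gene at 66.0 to 171 FPKM. MED21, the hinge partner of MED7, was at 28.6, 15.4 and 11.05 FPKM in A673 and 21.7, 16.9 and 9.54 FPKM in SKNMC. MED10, the most abundant middle subunit, was at 68.7, 37.4 and 36.1 FPKM in A673 and 49.9, 35.9 and 24.1 FPKM in SKNMC. The treated values of MED10 in A673 were close to each other, those in SKNMC further apart.

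MED1 was at 12.2, 7.42 and 5.05 FPKM in A673 and 27.9, 15.4 and 12.8 FPKM in SKNMC, so its order across conditions was alike in both lines at different levels. MED4, a subunit of the knob, was at 33.2, 28.0 and 17.7 FPKM in A673 and 35.4, 37.1 and 21.4 FPKM in SKNMC. MED19, a subunit of the hook near the polymerase, was the member on which the lines stood furthest apart at 200 nM. It was at 18.2, 12.7 and 12.0 FPKM in A673 and 14.3, 8.91 and 3.81 FPKM in SKNMC, a log2 difference of -0.56 against -1.67.

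As deposited, MED13, MED13L, MED14, MED15, MED25 and MED30 were above DMSO at 50 nM and below it at 200 nM in both lines. MED26 had the same order, with larger differences than these. This subunit (chr19:16685718-16739873, minus strand) sits with MED19 in the hook and brings elongation factors to the promoter. It was at 4.95 FPKM with DMSO, 11.1 FPKM at 50 nM and 1.999 FPKM at 200 nM in A673. In SKNMC the values were 4.07, 8.51 and 1.75 FPKM. The level at 50 nM was thus 224% of DMSO in A673 and 209% in SKNMC, and that at 200 nM 40.4% and 42.9%. On the log2 scale the difference at 50 nM was 1.02 and 0.91, placing MED26 at the 99.7th percentile of all genes in A673 and the 99.3rd in SKNMC. From 50 to 200 nM the difference was -2.01 in A673 and -1.79 in SKNMC, with 0.280% and 0.698% of all genes as low or lower. Each of these signs was the same under all 4 scalings in both lines, but in A673 the difference at 50 nM was 0.83 with ribosomal protein scaling, short of 2-fold.

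**Figure D2:**
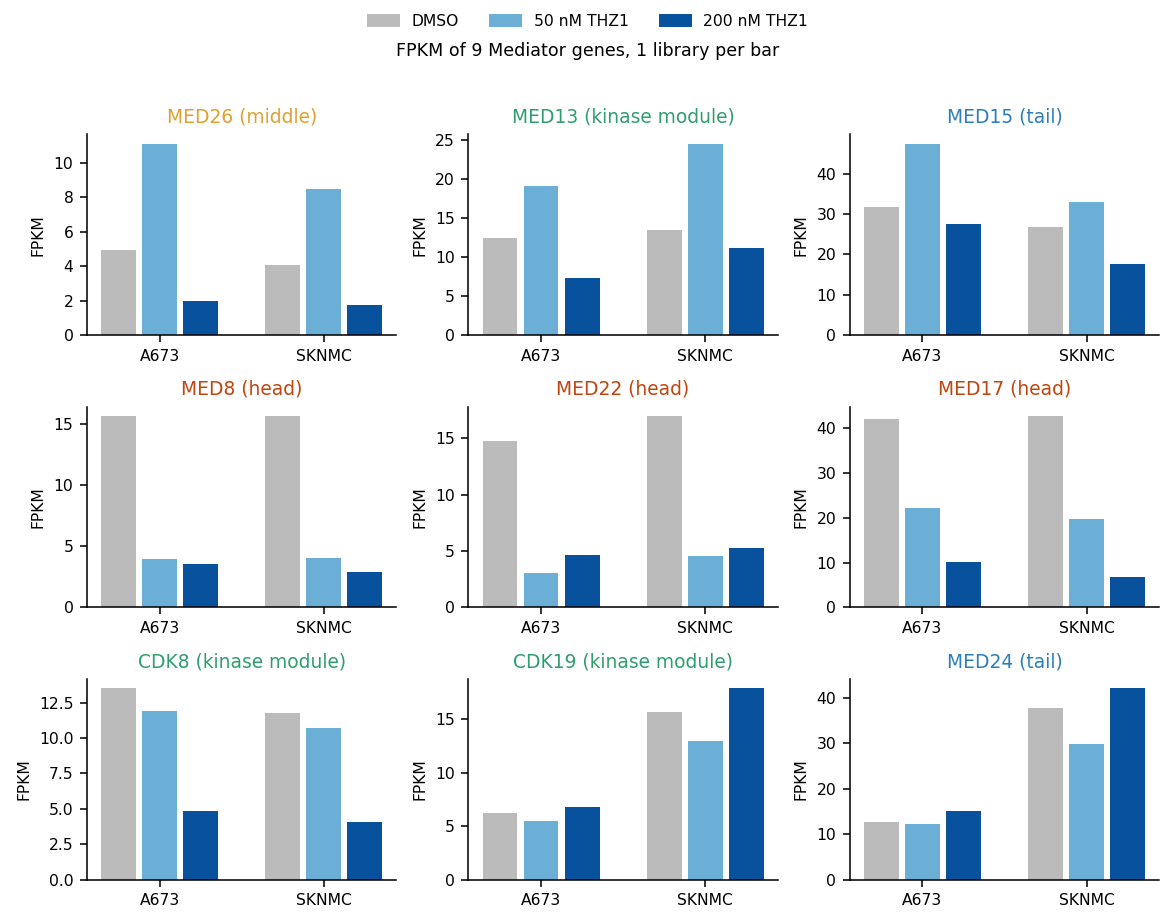
FPKM (y axis, linear from 0) of 9 Mediator genes in A673 and SKNMC, each bar 1 library with DMSO (grey), 50 nM (light blue) or 200 nM THZ1 (dark blue). MED26, MED13 and MED15 peak at 50 nM, MED8 and MED22 are already low at 50 nM, MED17 steps down with dose, and CDK8 is low at 200 nM, where CDK19 and MED24 have their highest bar.

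The scaffold and the tail stayed closer to their DMSO levels. MED14, the backbone that spans all core modules, was at 14.1, 16.0 and 11.7 FPKM in A673 and 18.7, 20.7 and 14.5 FPKM in SKNMC. The sign of its difference from DMSO turned with the scaling at either dose. The 5 tail genes had medians of -0.06 in A673 and -0.04 in SKNMC at 50 nM and of -0.18 and -0.34 at 200 nM. These turned positive when libraries were scaled to the 75th percentile. With scaling to the ribosomal protein genes they were -0.25 and -0.36 at 50 nM and -0.52 and -0.88 at 200 nM. At 200 nM 1 of 5 was then at least 2-fold lower in A673 and 2 of 5 in SKNMC, beside 34.7% and 50.5% of all genes. As deposited, 0 of 5 were that low at 50 nM in either line, beside 15.9% (A673) and 15.8% (SKNMC) of all genes. At 200 nM it was 0 of 5 in SKNMC, beside 27.3%, and 1 of 5 in A673, beside 25.3%.

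That gene was MED23, which binds the ETS factor ELK1, at 13.7, 11.6 and 6.28 FPKM in A673. Its difference at 200 nM was -0.71 with scaling to the 75th percentile, short of 2-fold. In SKNMC it was at 20.5, 19.9 and 13.2 FPKM. MED15, a docking site of several activators, was at 31.8, 47.4 and 27.5 FPKM in A673 and 26.8, 33.1 and 17.7 FPKM in SKNMC. It was thus highest at 50 nM in both lines, at 149% and 123% of DMSO, though its sign in SKNMC at 50 nM turned under ribosomal protein scaling. MED25, which binds ETS activators of the ETV family, was nearly level, at 32.3, 34.7 and 31.8 FPKM in A673 and 27.5, 29.3 and 23.9 FPKM in SKNMC.

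MED16 and MED24, which pair in the tail, went the other way between doses. MED16 was at 22.0, 15.9 and 19.3 FPKM in A673 and 17.1, 11.03 and 13.3 FPKM in SKNMC. MED24 was at 12.7, 12.2 and 15.1 FPKM in A673 and 37.7, 29.9 and 42.1 FPKM in SKNMC. Both were lowest at 50 nM in each line. MED24 at 200 nM was at 119% and 112% of DMSO, a sign that turned under ribosomal protein scaling, and its listed span shares 2926 bases with THRA on the opposite strand (3.56 to 20.1 FPKM).

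The subunits between head and tail were mixed. Their 4 genes had a median difference of -0.46 at both doses in A673, and of -0.34 at 50 nM and -0.89 at 200 nM in SKNMC. MED29 was at least 2-fold lower at 50 nM in both lines, at 14.8, 6.71 and 11.4 FPKM in A673 and 14.4, 4.68 and 5.40 FPKM in SKNMC. In A673 it was at -0.82 with scaling to the 75th percentile, short of 2-fold. In A673 the value at 200 nM was 169% of that at 50 nM, at the 98.9th percentile of all genes for that step. MED30 was highest at 50 nM and lowest at 200 nM in both lines. It was at 9.51, 13.3 and 6.07 FPKM in A673 and 14.8, 16.5 and 8.65 FPKM in SKNMC. Its sign in SKNMC at 50 nM turned under ribosomal protein scaling.

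MED27 was at 28.5, 23.7 and 22.5 FPKM in A673 and 14.8, 9.36 and 6.58 FPKM in SKNMC, so only the SKNMC library at 200 nM passed 2-fold. MED28 was at 29.2, 18.1 and 16.2 FPKM in A673 and 18.6, 17.6 and 16.7 FPKM in SKNMC. It was the member with the largest gap between the lines at 50 nM, at -0.66 in A673 against -0.08 in SKNMC.

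In the kinase module CDK8 was low at the high dose and MED13 high at the low dose. MED13 was also at 58.6% of DMSO in A673 at 200 nM. MED13L was at 137% in A673 and 124% in SKNMC at 50 nM. MED12 was at 68.1% in A673 at 50 nM, and CCNC at 54.5% in SKNMC at 200 nM. The median of its 6 expressed genes was -0.16 in A673 and -0.07 in SKNMC at 50 nM, and -0.32 and -0.22 at 200 nM. Scaling to the 75th percentile turned these medians positive except in A673 at 200 nM (-0.01). With scaling to the ribosomal protein genes they were -0.35 and -0.38 at 50 nM and -0.64 and -0.76 at 200 nM. In each line 0 of 6 genes were at least 2-fold lower at 50 nM, beside 15.9% (A673) and 15.8% (SKNMC) of all genes. At 200 nM it was 1 of 6, CDK8, in each line, beside 25.3% of all genes in A673 and 27.3% in SKNMC. In SKNMC CDK8 was at -0.88 with scaling to the 75th percentile, short of 2-fold. With ribosomal protein scaling 2 of 6 genes were at least 2-fold lower at 200 nM in each line, beside 34.7% (A673) and 50.5% (SKNMC) of all genes. These were CDK8 and MED13 in A673 and CDK8 and CCNC in SKNMC.

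CDK8, a catalytic subunit (chr13:26828276-26979375, plus strand), was at 13.5, 11.9 and 4.82 FPKM in A673. In SKNMC it was at 11.8, 10.7 and 4.09 FPKM. The low dose left it at 88.3% and 91.2% of DMSO and the high dose at 35.6% and 34.8%. Its paralog CDK19 (chr6:110931181-111137161, minus strand), the alternative catalytic subunit, was at 6.19, 5.46 and 6.84 FPKM in A673 and 15.7, 13.0 and 17.9 FPKM in SKNMC. CDK19 at 200 nM was at 111% and 114% of DMSO, a sign that turned under ribosomal protein scaling. Of the summed FPKM of both kinases, a ratio that no scaling changes, CDK8 held 68.6%, 68.6% and 41.3% in A673 with DMSO, 50 nM and 200 nM. In SKNMC it held 42.9%, 45.2% and 18.6%. CDK8 was therefore the more abundant mRNA of the pair in A673 except at 200 nM and the less abundant in all 3 SKNMC libraries.

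MED13, which anchors the module on the core (chr17:60019966-60142643, minus strand), was highest at 50 nM, with 12.4, 19.1 and 7.27 FPKM in A673. In SKNMC it was at 13.5, 24.5 and 11.2 FPKM. The level at 50 nM was 154% of DMSO in A673 and 182% in SKNMC, at the 98.2nd and 99.1st percentiles of all genes, and the sign was the same under all 4 scalings. Its paralog MED13L was at 15.8, 21.5 and 12.7 FPKM in A673 and 14.5, 18.0 and 12.5 FPKM in SKNMC. MED13 held 44.1%, 47.1% and 36.4% of the pair's sum in A673 and 48.3%, 57.7% and 47.1% in SKNMC.

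MED12, which activates the kinase together with cyclin C, was at 7.02, 4.78 and 5.27 FPKM in A673 and 16.0, 15.9 and 13.9 FPKM in SKNMC. MED12L was at 0.0130 to 0.290 FPKM over the 6 libraries, so MED12 held 94.8% to 99.8% of that pair. CCNC, the gene of cyclin C, was at 63.3, 51.0 and 52.0 FPKM in A673 and 62.1, 48.8 and 33.8 FPKM in SKNMC. The A673 values of CCNC at both doses were alike, while the SKNMC value at 200 nM was at 54.5% of DMSO.

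The makeup of the complex at the mRNA level was set out as shares of the summed FPKM of the 33 genes, which do not depend on the scaling of a library. The sum was 653, 512 and 399.8 FPKM in A673 and 647, 518 and 368 FPKM in SKNMC. The head held 20.6%, 15.0% and 13.0% of it in A673 and 19.6%, 12.5% and 9.54% in SKNMC. The middle held 29.4%, 23.8% and 22.7% in A673 and 27.2%, 25.1% and 21.0% in SKNMC. Both shares were lower in each step from DMSO to 50 nM to 200 nM in both lines.

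The other shares were higher with THZ1 than with DMSO, apart from the junction subunits. The tail held 17.2%, 23.8% and 25.0% in A673 and 20.0%, 23.8% and 29.9% in SKNMC. The kinase module held 18.1%, 22.2% and 22.3% in A673 and 20.6%, 25.3% and 25.4% in SKNMC. MED14 held 2.16%, 3.12% and 2.92% in A673 and 2.89%, 3.99% and 3.94% in SKNMC, and the junction subunits 12.5%, 12.1% and 14.1% and 9.69%, 9.30% and 10.1%. Shares sum to 100%, so a lower share of 1 module raises the others. Abundant genes weigh most in a share, which therefore gives no ratio of single subunits. In A673 with DMSO, CCNC was at 63.3 FPKM where the kinase module summed to 118 FPKM.

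**Figure D3:**
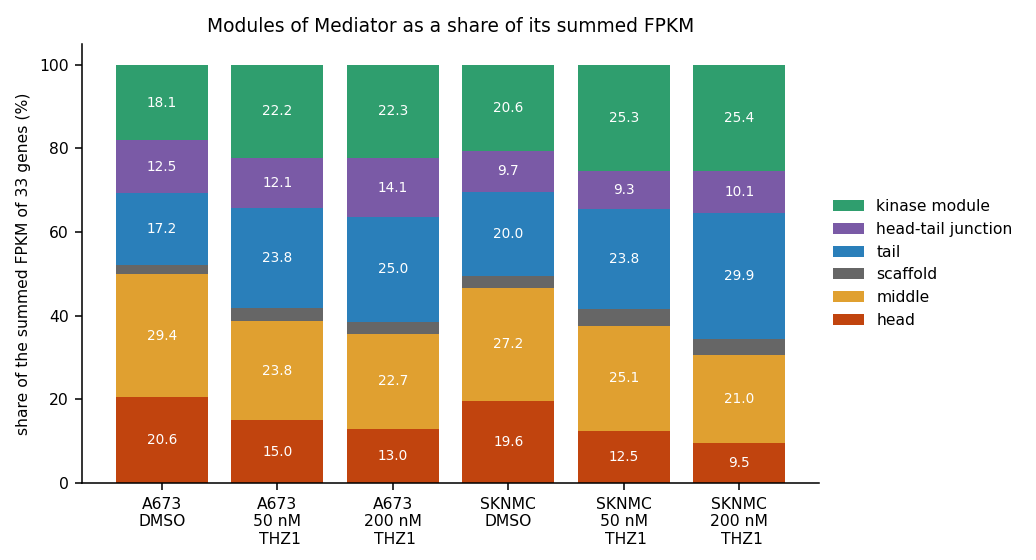
Share of the summed FPKM of the 33 genes (y axis, %) held by each module in the 6 libraries (x axis), 1 bar per library. The head share goes from 20.6% to 13.0% in A673 and from 19.6% to 9.54% in SKNMC, and the tail share from 17.2% to 25.0% and from 20.0% to 29.9%.

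The doses were also set directly against each other, which leaves the DMSO library out of the value. In A673, 6 of 32 members were at least 2-fold lower at 200 nM than at 50 nM, beside a background of 7.44%, and 0 were higher, where 0.117% of all genes were. These were MED17, MED18, MED26, MED30, MED13 and CDK8. In SKNMC, 5 of 32 members were, beside a background of 8.39%, and 0 were higher, where 0.370% of all genes were. These were MED17, MED19, MED26, MED13 and CDK8. The median difference of the members between the doses was -0.37 in A673 against -0.02 for all genes and -0.50 in SKNMC against -0.14.

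By any amount, 23 of 32 members had a lower FPKM at 200 nM than at 50 nM in A673, beside 51.7% of all genes, and 26 of 32 in SKNMC, beside 62.1%. With libraries scaled to the 75th percentile these were 20 of 32 beside 44.6% and 24 of 32 beside 43.9%. With scaling to the ribosomal protein genes they were 25 of 32 beside 64.7% and 29 of 32 beside 79.2%. Not lower in A673 were MED11, MED20, MED22, MED16, MED24, MED29, MED12, CDK19 and CCNC, and in SKNMC MED22, MED7, MED16, MED24, MED29 and CDK19. MED22, MED16, MED24, MED29 and CDK19 are in both lists. With ribosomal protein scaling MED12 and CCNC were lower at 200 nM in A673, and MED22, MED7 and MED29 in SKNMC.

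The lines, which share no library, gave similar values for most members. At 50 nM the differences of the 32 members in A673 and SKNMC had a Pearson correlation of 0.93 and a Spearman correlation of 0.92, where 10574 genes above 1 FPKM in both lines had 0.84 and 0.84. These are correlations across genes, which are not independent replicates. The members at least 2-fold lower in both lines were MED8, MED22, MED7, MED9 and MED29, which is 5 of the 6 in A673 and 5 of the 6 in SKNMC. Over all genes it was 1201 of 1697 in A673 and of 1698 in SKNMC. The median gap between the lines was 0.18 on the log2 scale, against 0.19 for all genes. Opposite signs were found for 2 members, MED6 and MED4, and for 1609 of the 10574 genes. MED6 was at 0.0006 in A673. The signs of MED6 in both lines and of MED4 in SKNMC turned with the scaling.

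At 200 nM the correlations were 0.81 and 0.76 for the members and 0.82 and 0.82 for all genes. Lower in both lines were 10 members, MED8, MED17, MED18, MED22, MED1, MED7, MED9, MED21, MED31 and CDK8, which is 10 of the 11 in A673 and 10 of the 16 in SKNMC. For all genes it was 2160 of 2712 in A673 and of 3030 in SKNMC. No member had opposite signs, where 1975 of the 10574 genes did. The median gap was 0.20 for the members and 0.30 for all genes. Among members the gap was largest for MED19 at 1.11, MED29 at 0.92, MED27 at 0.73 and MED11 at 0.73, each lower in SKNMC.

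**Figure D4:**
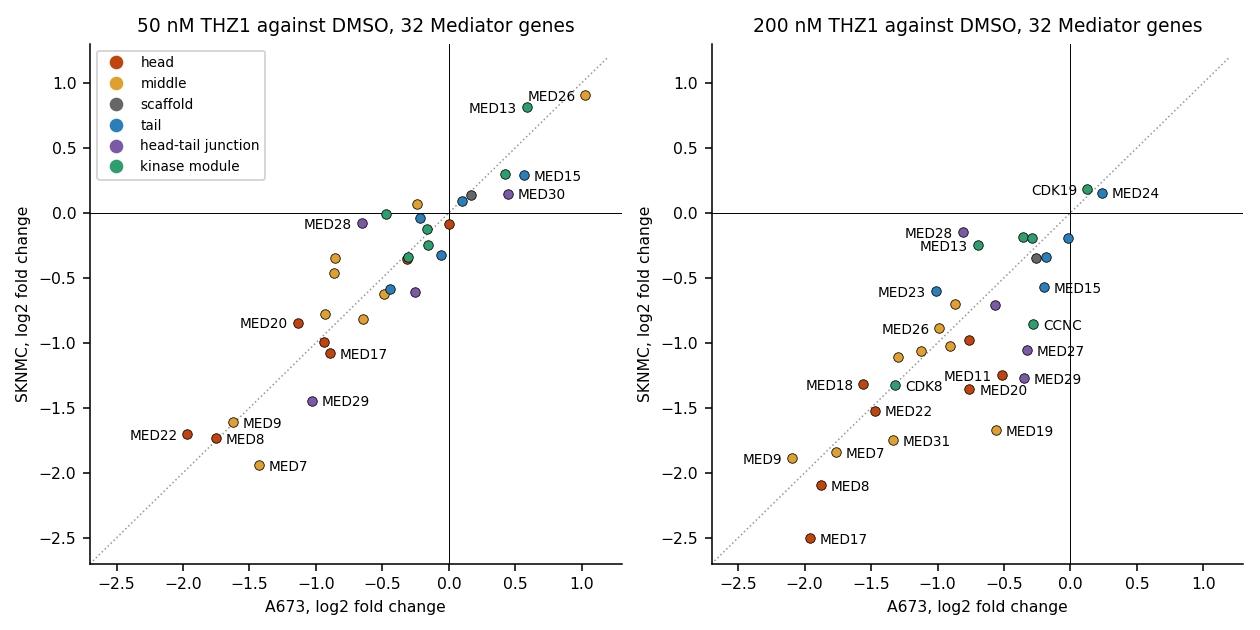
Difference from DMSO on the log2(FPKM + 1) scale in A673 (x axis) against SKNMC (y axis) for the 32 expressed members at 50 nM (left) and 200 nM THZ1 (right), coloured by module. The dotted line marks equal values. Points follow it at 50 nM, with MED28 furthest from it, and at 200 nM MED19, MED29, MED27 and MED11 lie below it.

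A feature that the rule did not use and that ran with the response at 50 nM was the span of the gene in the genome. Spans of the 33 genes ran from 2.18 kb for MED11 to 351 kb for MED12L, with a median of 24.6 kb over the 32 expressed. The split at this median was chosen after values had been seen. At 50 nM, 6 of the 16 members under it were at least 2-fold lower in A673 and 5 of 16 in SKNMC, where 22.9% and 22.2% of all genes under that span were. Of the 16 longer members it was 0 in A673 and 1, MED17, in SKNMC, where 10.7% and 11.1% of all longer genes were. The Spearman correlation of the difference with span was 0.66 in A673 and 0.57 in SKNMC over 32 members, and 0.18 in both lines over all genes. Lines share the same spans, so these are not independent of each other.

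At 200 nM the members differed less by span in A673, where 6 of 16 short and 5 of 16 long members were lower. In SKNMC it was 11 of 16 and 5 of 16. All short and long genes were lower in 28.6% and 22.9% of cases in A673 and in 31.1% and 24.4% in SKNMC. The correlation was then 0.35 and 0.51 for the members and -0.01 and 0.04 for all genes. Members also share functions and modules, and 11 of the 16 shorter members belong to the head or the middle, against 5 of the 16 longer.

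**Figure D5:**
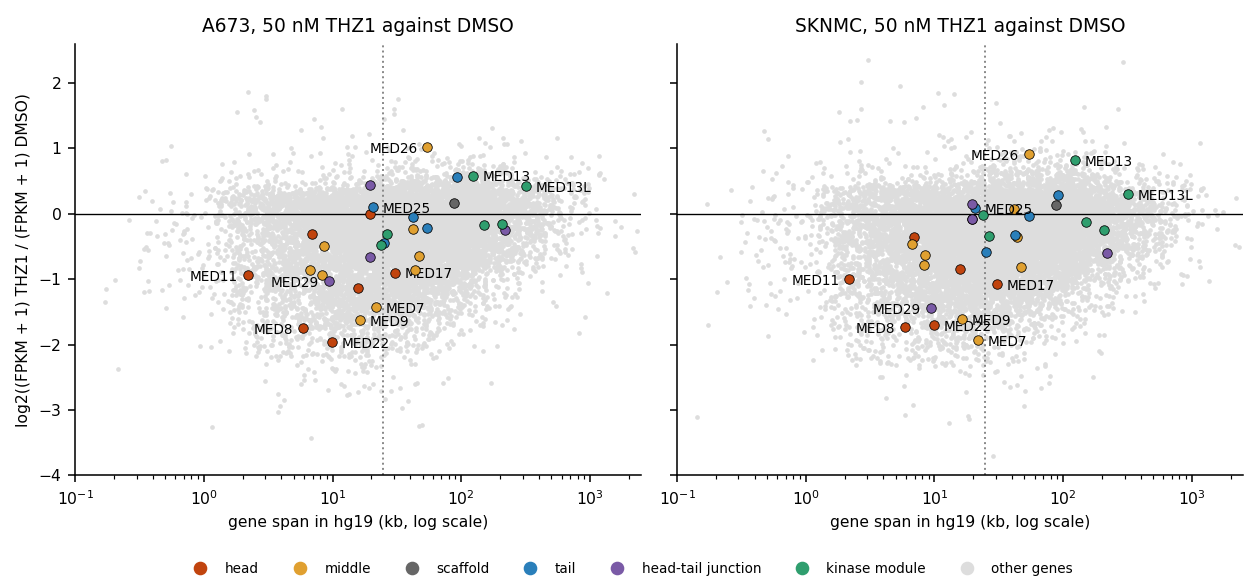
Gene span in hg19 (x axis, kb, log scale) against the difference from DMSO at 50 nM THZ1 on the log2(FPKM + 1) scale (y axis) in A673 (left) and SKNMC (right). Grey points are all genes above 1 FPKM, coloured points the 32 expressed members, and the dotted line their median span of 24.6 kb. MED8, MED22, MED9, MED7 and MED29 lie left of it and low, MED26, MED13 and MED13L right of it and above 0. EEF1A1 lies below the axis in SKNMC.

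Proteins that work with Mediator were listed apart from it: cohesin and its loader, coactivators, the elongation factors that MED26 binds, polymerase and initiation factors, and FBXW7, the ubiquitin ligase subunit that targets MED13. All 21 of these genes were above 1 FPKM in both DMSO libraries. At 50 nM, 3 were at least 2-fold lower and 2 higher in A673, beside 15.9% and 0.343% of all genes, and 2 lower and 2 higher in SKNMC, beside 15.8% and 0.471%. At 200 nM, 9 were lower in A673 and 7 in SKNMC, beside 25.3% and 27.3%, and 0 were higher in either line, where 0.126% and 0.462% of all genes were. Their median difference was -0.09 in both lines at 50 nM, and -0.84 in A673 and -0.73 in SKNMC at 200 nM. For all genes it was -0.27 and -0.32 at 50 nM and -0.40 and -0.55 at 200 nM.

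Lowest of them at 50 nM, averaged over the lines, were MAU2, ZC3H8 and NARG2. MAU2, a partner of the cohesin loader NIPBL, was at 16.8, 3.14 and 4.42 FPKM in A673 and 14.3, 3.76 and 5.20 FPKM in SKNMC. ZC3H8 was at 14.4, 6.11 and 7.49 FPKM in A673 and 12.9, 5.50 and 4.78 FPKM in SKNMC, and NARG2 at 22.4, 10.6 and 12.1 FPKM and 24.3, 16.2 and 16.3 FPKM. ZC3H8 and NARG2 are both subunits of the little elongation complex that MED26 recruits to small nuclear RNA genes.

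Among the highest were POLR2A and FBXW7. POLR2A, the largest subunit of RNA polymerase II, was at 37.6, 116 and 47.4 FPKM in A673 and 29.2, 96.8 and 46.8 FPKM in SKNMC. FBXW7 was at 4.84, 11.2 and 5.42 FPKM in A673 and 4.98, 14.1 and 9.60 FPKM in SKNMC. The FPKM of both was highest at 50 nM in both lines.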

How the data were processed

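RNA-seq of A673 and SKNMC cells was used, 6 libraries in 6 conditions taken from the sample labels. The authors sequenced 100-bp paired-end reads, aligned them to hg19 with STAR and Ensembl 75, and deposited FPKM per gene. Their methods name StringTie for this step and the submitters' processing notes Cufflinks, and versions are not given in the sources used here. The file title speaks of average expression, but the labels give 1 library per condition, and each column was taken as 1 library. The 4 deposited columns of log2 fold changes are comparisons of the authors and were not used. Gene starts count from 0 in the file and are given here from 1.

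FPKM is relative to the library total, and a loss of RNA that is equal for all genes cannot be seen in it. Depth and strand handling are unknown. Differences were computed with a pseudocount of 1 FPKM over genes above 1 FPKM in the DMSO library, without a test. The 50 and 200 nM differences of a line share its DMSO library. Alternatives were a pseudocount of 0.1, a 1.5-fold limit, a filter at 5 FPKM or none, and scaling to a common sum, to the 75th percentile or to the median of 83 ribosomal protein genes. The last 2 moved the median of all genes by 0.21 and -0.18 (A673, 50 nM), 0.30 and -0.29 (A673, 200 nM), 0.24 and -0.28 (SKNMC, 50 nM) and 0.45 and -0.46 (SKNMC, 200 nM). All 33 members could be named, and of 21 partner genes the 3 lowest and 3 highest at 50 nM, of which 1 is not reported here. Members and lists were chosen with earlier results of these data known. The steps were tested on simulated data. Python 3.11.15, numpy 2.4.6, pandas 2.3.3 and scipy 1.17.1 were used. The protein sequences and 8 promoters of members were not used here.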

Additional observations from a re-analysis of the deposited data

How the results depend on the processing

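Values rest on 1 library per condition, so none could be left out, and a fit over both lines with the line as a block was not run. At a 1.5-fold limit, 13 members were lower in A673 and 13 in SKNMC at 50 nM (31.8% and 33.5% of all genes). In A673 at 200 nM 18 were lower (41.1%). Between the lines with DMSO 10 members differed at that limit, for which the share of all genes was not computed. Scaling to the 75th percentile gave 7 members at least 2-fold lower in SKNMC at 200 nM (13.96% of all genes), with a median of -0.51. Scaling to the ribosomal protein genes gave 11 and 10 lower members at 50 nM in A673 and SKNMC (20.8% and 25.5% of all genes), 18 in A673 at 200 nM (34.7%), and a median of -1.53 in SKNMC at 200 nM. The scaling itself shifts every gene of a library. With a pseudocount of 0.1, 8, 12, 7 and 18 members were lower (A673 at 50 and 200 nM, SKNMC at 50 and 200 nM), beside 21.6%, 31.1%, 22.5% and 34.3% of all genes, and MED26 was higher at 50 nM in both lines. Under the 4 scalings, 25 and 23 of 32 members kept their sign in A673 at 50 and 200 nM and 20 and 23 in SKNMC. The tail, scaffold and kinase module medians changed sign with the scaling in at least 1 comparison each, the head and middle medians in none. Single members newly past 2-fold against those no longer past it, over the 4 comparisons with DMSO, numbered 2 and 15 under 75th percentile scaling, 23 and 1 under ribosomal protein scaling, 8 and 0 with the pseudocount of 0.1 and 0 and 1 with a common sum. The 8 with the pseudocount of 0.1 included MED12L in A673 at 200 nM, which was below 1 FPKM with DMSO and outside the other counts. No value past 2-fold changed sign.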
